A study of Mus musculus with 6 samples.

Results

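The 9 genes described here are the mouse genes Pf4, Ppbp, Itga2b, Itgb3, Gp1ba, Gp1bb, Gp9, Treml1 and Vwf, chosen by name as genes that define megakaryocytes and platelets, out of 54532 genes deposited. Their expression was read in 6 RNA-seq libraries of sorted C57BL/6 mouse cells, 1 library per condition. There were 4 libraries of macrophages, from mice without leukemia given PBS (WT), mice without leukemia given iron (WT/FE), mice with MLL-AF9 leukemia given PBS (MA9) and mice with MLL-AF9 leukemia given iron (MA9/FE). The other 2 libraries held leukemia cells, sorted from BM of the MA9 and of the MA9/FE kind of mouse. MA9 mice carried transplanted leukemia cells that came from c-kit+ BM cells infected with a retrovirus for MLL-AF9, a fusion oncogene, and GFP, so the oncogene was driven by the virus rather than by its own locus. FE mice received iron dextran, an iron-loading agent, by 6 intraperitoneal injections of 0.2 mL at 25 mg/mL, begun in leukemic mice 1 week after transplantation. The mice were 6 to 8 weeks old. The labels place the macrophages in the spleen, whereas the methods of the study describe sorting of GFP- macrophages from the BM, and the conflict was not settled. The number of mice behind each library is not given in the sources used here.

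Each value is an FPKM, the reads of a gene per kilobase of its exons, in proportion to the depth of that library. The reads behind each FPKM were recovered from the exon lengths, and the depth was between 16085346 and 19518358 reads per library. No condition had a replicate, so no spread between mice is known, and all intervals below are exact 95% intervals that cover counting error only. The macrophage libraries did not hold macrophage transcripts alone. The summed FPKM of 12 macrophage genes was between 382 and 908 in them, while that of 5 B cell genes was between 1006 and 1835 (18.1 to 19.1 in the leukemia cells). In bulk RNA of this kind, fewer cells of a type and less RNA per cell cannot be told apart.

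Megakaryocytes are the large marrow and spleen cells that shed platelets, and platelets carry megakaryocyte RNA with them. Transcription factors such as Gata1, Fli1 and Nfe2 direct the lineage, and binding sites for GATA and ETS factors are known to recur in the control regions of its genes. The products of the 9 genes work in sequence at a wound. Von Willebrand factor (Vwf) ties platelets to the vessel wall through the GPIb-IX complex (Gp1ba, Gp1bb, Gp9), the integrin made of Itga2b and Itgb3 then binds fibrinogen and joins platelets to each other, and the granules release the chemokines Pf4 and Ppbp and expose the receptor Treml1. Several of the 9 are not exclusive to platelets. Itga2b also marks early blood progenitors and mast cells, Itgb3 is found on macrophages and osteoclasts, and Vwf is made by endothelial cells.

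The promoters of 4 of these genes are printed here, 2 whose FPKM was higher in MA9 than in WT macrophages by over 2-fold (Pf4 and Itga2b) and 2 of the GPIb-IX complex that were not (Gp1ba and Gp9). The sequences are those of RefSeq on GRCm38.p6, from 250 bases upstream to 50 bases downstream of the start of the gene, and capitals mark a GATA motif (AGATAA, its variant AGATAG, its variant TGATAA, and the variant TGATAG) or an ETS motif (AGGAAG, and the variant CGGAAG) on either strand. The Pf4 promoter lies at chr5:90772185-90772484 on the plus strand, that of Itga2b at chr11:102469834-102470133 on the minus strand, that of Gp1ba at chr11:70638872-70639171 on the plus strand and that of Gp9 at chr6:87777820-87778119 on the plus strand. The start used is that of RefSeq. For Itga2b it lies within the gene span given below, which on the minus strand begins at 102470122, so most of the printed window is inside that span.
Pf4: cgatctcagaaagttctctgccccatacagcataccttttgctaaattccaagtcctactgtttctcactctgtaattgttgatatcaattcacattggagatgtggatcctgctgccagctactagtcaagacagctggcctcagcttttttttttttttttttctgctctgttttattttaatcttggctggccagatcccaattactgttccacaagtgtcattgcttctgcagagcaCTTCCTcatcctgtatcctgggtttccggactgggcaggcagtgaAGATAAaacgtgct
Itga2b: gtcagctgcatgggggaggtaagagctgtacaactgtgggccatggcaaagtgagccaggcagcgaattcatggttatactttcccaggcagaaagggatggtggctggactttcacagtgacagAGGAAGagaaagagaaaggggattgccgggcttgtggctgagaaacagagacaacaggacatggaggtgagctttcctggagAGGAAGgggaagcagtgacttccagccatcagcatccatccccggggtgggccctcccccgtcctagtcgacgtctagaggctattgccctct
Gp1ba: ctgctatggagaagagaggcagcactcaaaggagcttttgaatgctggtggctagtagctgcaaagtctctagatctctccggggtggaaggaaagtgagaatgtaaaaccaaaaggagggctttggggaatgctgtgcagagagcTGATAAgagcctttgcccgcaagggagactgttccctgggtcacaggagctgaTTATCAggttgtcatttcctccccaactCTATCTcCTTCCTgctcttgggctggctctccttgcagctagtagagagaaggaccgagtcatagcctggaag
Gp9: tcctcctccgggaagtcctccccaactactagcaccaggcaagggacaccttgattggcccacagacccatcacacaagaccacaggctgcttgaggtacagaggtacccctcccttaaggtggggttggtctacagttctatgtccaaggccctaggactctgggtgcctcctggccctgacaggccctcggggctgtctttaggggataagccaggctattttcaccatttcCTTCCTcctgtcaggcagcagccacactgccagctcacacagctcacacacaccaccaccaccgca
Of the 9 genes, 7 had a promoter in the RefSeq table, all except Itgb3 and Vwf. A GATA motif was found in 3 of the 7 (Pf4, Gp1ba and Gp1bb) and in 29.8% of all 32851 promoters of the same length. An ETS motif was found in 5 of the 7 (Pf4, Itga2b, Gp1ba, Gp1bb and Gp9) and in 46.5% of all promoters, and both kinds stood together in 3 of the 7 and in 12.6% of all. Gp1ba held the most GATA motifs, 3, of which the one nearest to the start began 23 bases before it and ended next to the ETS motif. All 4 genes printed held an ETS motif, and the GATA motifs were in Pf4, of the pair that was higher, and in Gp1ba, of the pair that was not. A match describes letters and not a site in use.

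Pf4 and Itga2b were the members that stood out in the macrophages of leukemic mice. Pf4 (platelet factor 4, a chemokine of the platelet alpha granule) lies at chr5:90772435-90773383 on GRCm38 and has 3 exons. WT macrophages had 1.35 FPKM (19 reads), WT/FE macrophages 0.991 (12 reads), MA9 macrophages 7.91 (97 reads) and MA9/FE macrophages 5.6 (65 reads). Both libraries of leukemic mice lay above both libraries of mice without leukemia, and the counting intervals of the lower leukemic library (4.33 to 7.14 FPKM) and the higher other one (0.813 to 2.11 FPKM) did not overlap. After scaling by TMM (trimmed mean of M values), the ratio of reads was 5.92 (3.59 to 10.2) for MA9 against WT and 5.74 (3.07 to 11.7) for MA9/FE against WT/FE macrophages. On the log2(FPKM + 1) scale, which understates the change of low genes, these differences were 1.93 and 1.74. The leukemia cells held almost no Pf4, with 1 read (0.0764 FPKM) without iron and 5 reads (0.388 FPKM) with iron.

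Ppbp encodes another chemokine of the same granules and lies next to Pf4, at chr5:90768518-90770063. WT macrophages had 0.804 FPKM, WT/FE macrophages 0.879, MA9 macrophages 0.597 and MA9/FE macrophages 0.976, from 11 to 17 reads each. The library highest in Pf4 was the lowest in Ppbp, and all 4 intervals overlapped. The ratio of reads was 0.75 (0.317 to 1.7) for MA9 against WT and 1.13 (0.535 to 2.38) for MA9/FE against WT/FE, so a 3-fold rise lay outside both intervals. In the leukemia cells Ppbp had 3 and 4 reads.

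Itga2b (integrin alpha IIb, the CD41 antigen) lies on the minus strand at chr11:102453297-102470122. WT macrophages had 1.77 FPKM (188 reads), WT/FE macrophages 1.72 (158 reads), MA9 macrophages 6.87 (637 reads) and MA9/FE macrophages 4.17 (366 reads). Both leukemic libraries were again above both others, and here the MA9 library was also above the MA9/FE library. The ratio of reads was 3.93 (3.33 to 4.64) for MA9 against WT and 2.46 (2.03 to 2.98) for MA9/FE against WT/FE. The matching log2(FPKM + 1) differences were 1.52 and 0.94, so the second fell short of a 2-fold difference on that scale although its ratio of reads was above 2. The leukemia cells had 1.37 FPKM of Itga2b without iron and 1.39 with iron, below all 4 macrophage libraries. The 2 values differed by less than their counting error.

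Its partner Itgb3 (integrin beta 3, at chr11:104608000-104670476) had no 2-fold difference in the macrophages. WT macrophages had 5.65 FPKM, WT/FE macrophages 5.45, MA9 macrophages 6.53 and MA9/FE macrophages 4.99, and the leukemia cells had 7.71 without and 7.72 with iron. Among macrophages the MA9 library was the highest and the MA9/FE library the lowest. The ratio of reads was 1.17 (1.04 to 1.3) for MA9 against WT and 0.93 (0.821 to 1.05) for MA9/FE against WT/FE. Itgb3 was also the single member that was higher in the leukemia cells than in the macrophages of both kinds of leukemic mouse, by 1.15-fold (1.04 to 1.28) and 1.52-fold (1.35 to 1.7). The level of Itgb3 thus lay above that of Itga2b in WT macrophages (5.23 to 6.1 against 1.52 to 2.04 FPKM), whereas their intervals overlapped in MA9 macrophages (6.04 to 7.05 against 6.35 to 7.42 FPKM).

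**Figure D1:**
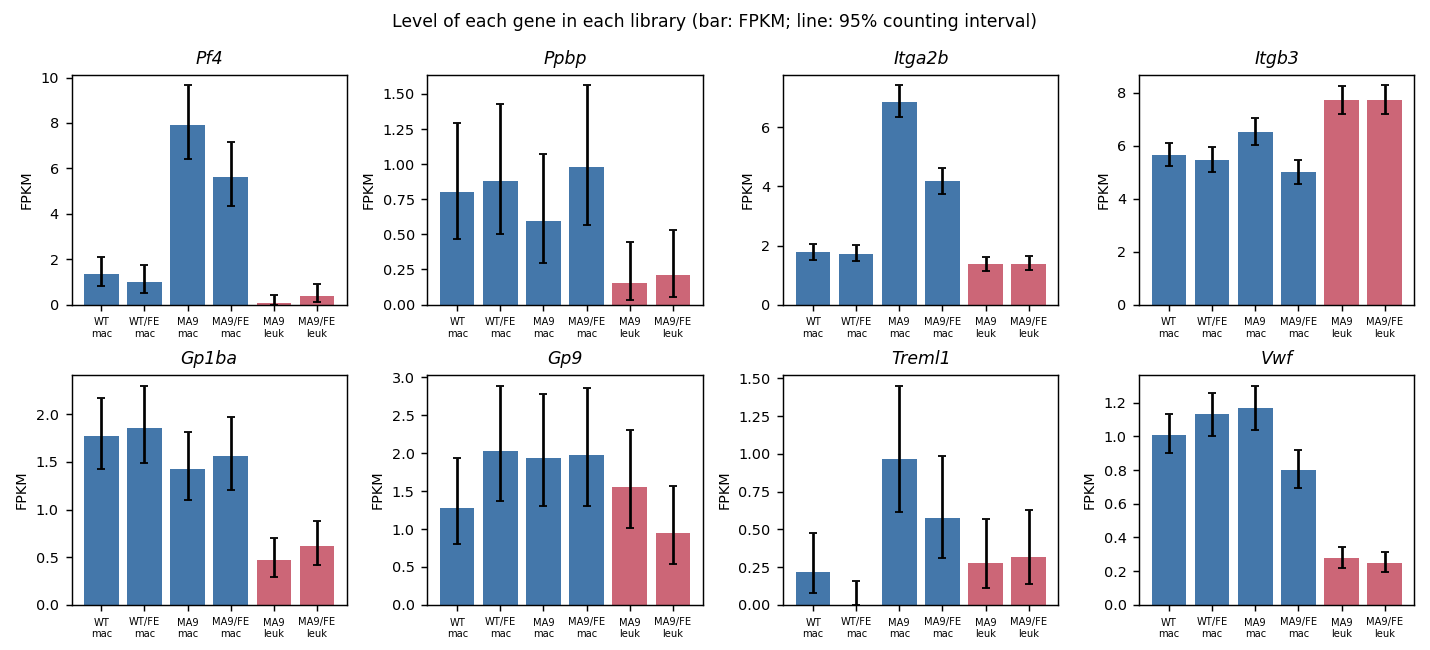
FPKM of the 9 genes except Gp1bb in each of the 6 libraries, 1 panel per gene, with bars for the libraries and lines for the exact 95% counting intervals. The bars of Pf4 and Itga2b are high in the macrophages of MA9 (7.91 and 6.87 FPKM) and MA9/FE (5.6 and 4.17 FPKM). Gp1bb, listed at 0 throughout, is not drawn.

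Gp1ba and Gp9 of the GPIb-IX complex, the receptor for von Willebrand factor, showed no difference beyond counting error between leukemic and other macrophages. Gp1ba (the ligand-binding chain, at chr11:70639122-70642036) stood at 1.77 FPKM for WT, 1.86 for WT/FE, 1.43 for MA9 and 1.56 for MA9/FE macrophages. The ratio of reads was 0.814 (0.585 to 1.13) for MA9 against WT and 0.848 (0.607 to 1.18) for MA9/FE against WT/FE. Both intervals held a ratio of 1, in the same libraries in which Pf4 and Itga2b were higher. Gp9 (the small chain that holds the complex at the surface, at chr6:87778072-87779768) stood at 1.28 FPKM for WT, 2.03 for WT/FE, 1.94 for MA9 and 1.98 for MA9/FE macrophages, from 22 to 30 reads each. Its ratio of reads was 1.53 (0.848 to 2.79) for MA9 against WT and 0.989 (0.57 to 1.71) for MA9/FE against WT/FE, both without a difference detectable at this depth. In the leukemia cells Gp1ba was at 0.466 and 0.618 FPKM and Gp9 at 1.56 and 0.954 FPKM, without and with iron.

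Gp1bb, the chain that links to Gp1ba, was listed at 0 in all 6 libraries. Spread over all of its exon bases, 3 reads would correspond to 0.0736 to 0.0894 FPKM. That is no upper limit for Gp1bb, because most of its exon bases are shared with other genes. The gene is a single block of 2087 exon bases at chr16:18620317-18622403, of which 92.9% also belong to exons of Sept5 or Gm49601 on the same strand, so that 149 bases are its own. Among protein-coding genes with at least 90% of their exon bases inside another gene of the same strand, 147 of 204 (72.1%) were listed at 0 in all libraries, against 5241 of 21995 protein-coding genes (23.8%). Sept5, a septin, had 4 to 20 reads in the macrophages and 82 and 65 in the leukemia cells, and within the shared bases its reads and those of Gp1bb cannot be told apart. No comparison of Gp1bb is therefore given.

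Treml1 (TLT-1, a receptor of the granule membrane that reaches the surface of activated platelets, at chr17:48359916-48367176) was the lowest measured member in 3 of the 4 macrophage libraries. It had 6 reads (0.219 FPKM) for WT, 0 for WT/FE, 23 (0.965 FPKM) for MA9 and 13 (0.576 FPKM) for MA9/FE macrophages. The leukemic libraries were the higher ones, as for Pf4 and Itga2b, but on few reads. The ratio of reads was 4.44 (1.76 to 13.3) for MA9 against WT, and for MA9/FE against WT/FE, with 0 reads in the latter, the lower 95% limit of the ratio was 3.23. Neither reached a 2-fold difference on the log2(FPKM + 1) scale (0.69 and 0.66). The leukemia cells had 7 and 8 reads.

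Vwf, the largest of the 9 with 56 exon blocks at chr6:125546774-125686679, stood at 1.01 FPKM for WT, 1.13 for WT/FE, 1.17 for MA9 and 0.801 for MA9/FE macrophages. The lowest library was MA9/FE, and the other 3 overlapped in their intervals. The ratio of reads was 1.17 (0.998 to 1.37) for MA9 against WT and 0.722 (0.602 to 0.864) for MA9/FE against WT/FE. On the log2(FPKM + 1) scale the last difference was -0.23, and it changed sign (0.04) once the trend of differences on exon length was removed. The leukemia cells had 0.278 and 0.248 FPKM, below all macrophage libraries.

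Counts of members were set against those of all genes. In MA9 against WT, 2 of the 8 members with at least 10 reads in either library (Pf4 and Itga2b, both higher) had a 2-fold difference on the log2(FPKM + 1) scale, against a background of 4.7% of 16926 genes in either direction and 3.79% in the higher direction. The median log2 difference of the 8 members was 0.28, and that of all genes was -0.00. In MA9/FE against WT/FE, 1 of 8 members (Pf4) passed against a background of 4.57% (2.93% higher), with a median of 0.04 beside 0.01 for all genes. By counting intervals that excluded a ratio of 1, 4 of 8 members differed in each comparison, and 54.4% and 60.1% of all genes did so. By a test of counting noise on the reads (exact binomial, Benjamini-Hochberg adjusted p at or under 0.01, with a 2-fold ratio of reads), which compares libraries and not conditions, 3 of 8 members passed in each (Pf4, Itga2b and Treml1), against 9.6% and 9.66% of genes. These 2 comparisons share no library.

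No member with enough reads differed by iron beyond counting error in mice without leukemia. In WT/FE against WT macrophages, 0 of the 7 members with enough reads had a 2-fold difference, against a background of 1.27%, and 0 passed the reads test (background 2.06%). None of their intervals excluded a ratio of 1, against 34.5% of genes. The ratios lay between 0.731 (0.323 to 1.59) for Pf4 and 1.58 (0.88 to 2.87) for Gp9. Treml1, below 10 reads in both, went from 6 reads to 0. In MA9/FE against MA9 macrophages, 0 of 8 members had a 2-fold difference, against a background of 2.46%, 0 passed the reads test (background 6.49%), and 3 were lower beyond counting error (background 55.2% in either direction and 25.9% lower). These were Itga2b with a ratio of 0.623 (0.546 to 0.709), Itgb3 with 0.784 (0.695 to 0.884) and Vwf with 0.703 (0.587 to 0.84), of which that of Vwf shrank from -0.25 to -0.04 on the log2(FPKM + 1) scale without the trend on exon length. The ratios of Itga2b and Itgb3, with 5454 and 5901 exon bases, were not freed of that trend. Pf4 had a ratio of 0.726 (0.522 to 1) in the comparison of MA9/FE with MA9 macrophages. This comparison shares a library with each of the 2 comparisons of leukemic with other mice, so its values are not independent of theirs.

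**Figure D2:**
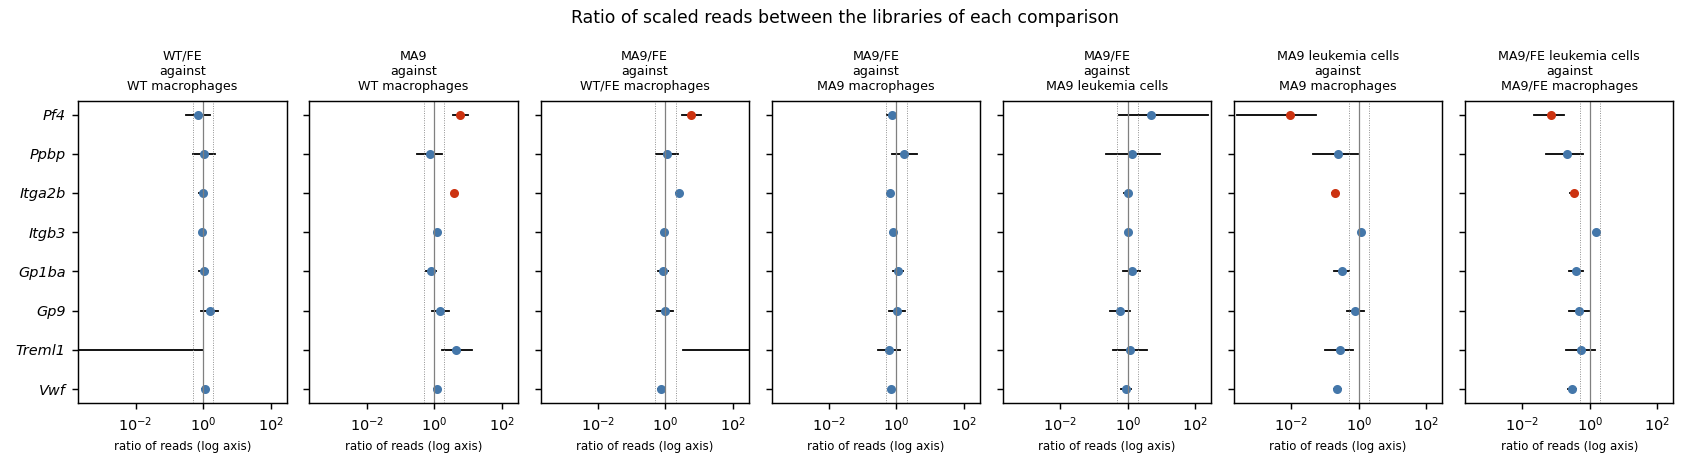
Ratio of TMM-scaled reads (log axis) of 8 members in each of the 7 comparisons, with exact 95% counting intervals as lines. Red points are a 2-fold difference on log2(FPKM + 1), blue points are not, dotted lines mark ratios of 0.5 and 2, and a line that meets the edge with no point is Treml1 against or at 0 reads. The points of Pf4 (5.92 and 5.74) lie to the right in both comparisons of leukemic with other macrophages, and the lines of Ppbp, Gp1ba and Gp9 include 1 in them.

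Most members had lower levels in the leukemia cells than in the macrophages of the same kind of mouse. Their share of 2-fold differences was near that of all genes. In MA9, 2 of 8 members had a 2-fold difference (Pf4 and Itga2b, both lower in leukemia cells), against a background of 20% of genes (12.6% lower), and in MA9/FE the same 2 of 8 did, against 22.8% (13.2% lower). The share of members was near the background in either direction. By the reads test 5 of 8 members passed in each, against 32.4% and 37% of genes. By counting intervals 7 of 8 did, 6 lower and 1 (Itgb3) higher, against 72.9% and 76.6% of genes in either direction. Itga2b was 5.12-fold (4.25 to 6.2) and 3.07-fold (2.51 to 3.77) lower in the leukemia cells by reads. Pf4 was 14.7-fold (5.99 to 46.8) lower in MA9/FE leukemia cells, and in MA9 leukemia cells its single read gave a ratio of 0.00944 (0.000237 to 0.0538) to the macrophages. Vwf was 4.3-fold (3.36 to 5.56) and 3.3-fold (2.51 to 4.39) lower, and Gp1ba 3.13-fold (1.92 to 5.28) and 2.57-fold (1.65 to 4.09) lower. The GFP+ leukemia cells thus had lower levels of Pf4 and Itga2b than the macrophage libraries in which those genes were high. When leukemia cells with and without iron were compared, 0 of the 5 members with enough reads had a 2-fold difference, against a background of 0.863%. None passed the reads test (background 1.69%), and none of their intervals excluded a ratio of 1 (background 30%).

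An additive model of leukemia and iron was fitted to the 4 macrophage libraries with limma, in which the only residual is the interaction of leukemia with iron and not the spread between mice. For leukemia, Pf4 had a log2(FPKM + 1) difference of 1.84 ± 0.22 (SE; limma, Benjamini-Hochberg adjusted p = 0.000671). Itga2b had 1.23 ± 0.24 (limma, Benjamini-Hochberg adjusted p = 0.0101) and Treml1 0.68 ± 0.13 (adjusted p = 0.0107). The other 5 members tested did not pass, with differences between -0.16 (Gp1ba) and 0.19 (Gp9). So 3 of 8 members passed, against a background of 4.94% of 16268 genes. Without a minimum of reads, where 1 gene in all passed for leukemia, none of the 3 did (limma, adjusted p = 0.341 for Pf4, 0.386 for Itga2b and 0.376 for Treml1). For iron, 0 of 8 members passed limma's adjusted p (background 0.209%), and 1 member, Treml1, had an unadjusted limma p under 0.05, with a difference of -0.30 ± 0.13, where 4.92% of all genes had such a p. The adjusted p of limma was at or under 0.05 for 34 genes. For leukemia cells against macrophages in the 4 libraries of leukemic mice, 6 of 8 members were lower (background 22.7% of 16291 genes lower and 40.6% in either direction), and Itgb3 and Gp9 did not pass (limma, Benjamini-Hochberg adjusted p = 0.194 and 0.121). Without a minimum of reads Pf4 was the 1 of the 6 that passed (limma, adjusted p = 0.0294).

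The transcription factors of the lineage held the largest share of 2-fold differences in MA9 against WT macrophages among 3 further lists of megakaryocyte and platelet genes. Of 10 such genes, 6 had a 2-fold difference in MA9 against WT macrophages, all higher (background 3.79% higher), with a median log2(FPKM + 1) difference of 1.31. Gata1, the factor that drives megakaryocyte and erythroid differentiation, rose from 105 to 477 reads (ratio 5.26, 4.25 to 6.57). Tal1, a factor of the same complex, went from 169 to 851 reads (5.83, 4.94 to 6.92), and Gfi1b, a repressor needed for both lineages, from 81 to 419 (5.99, 4.71 to 7.7). Gata2, a factor of progenitors and mast cells, had a ratio of 4.07 (3.53 to 4.72), Nfe2, which directs platelet release, 3.27 (2.8 to 3.83), and the Gata1 cofactor Zfpm1 2.28 (2.1 to 2.47). Runx1 (0.98, 0.912 to 1.05), Meis1 (1.22, 0.974 to 1.52) and Mafg (1.25, 1.15 to 1.36) had no 2-fold difference, nor did Fli1.

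In MA9/FE against WT/FE macrophages, 5 of the 10 factors were 2-fold higher (background 2.93% higher), with a median of 0.86. Gata1 had a ratio of 5.24 (3.85 to 7.25), while Tal1 was at 3.14 (2.54 to 3.91) and Gfi1b at 3.16 (2.37 to 4.28). In MA9/FE against MA9 macrophages, 1 of the 10 passed (background 2.46%), Tal1, which was lower with a ratio of 0.442 (0.389 to 0.501). The median difference of the 10 was -0.50, beside 0.01 for all genes. By the reads test 2 were lower, Tal1 and Gfi1b (0.486, 0.407 to 0.579), and 0 higher (background 6.49%). The intervals of Gata1 (0.561, 0.479 to 0.656), Gata2 (0.614, 0.548 to 0.687), Zfpm1 (0.637, 0.589 to 0.689), Nfe2 (0.743, 0.656 to 0.842), Runx1 and Mafg also lay below 1, as for 25.9% of all genes. These ratios were not freed of the trend on exon length. By limma, 6 of the 10 passed for leukemia (background 4.94%), all higher, among them Gata1 (Benjamini-Hochberg adjusted p = 0.000658), and none passed for iron (background 0.209%). Without a minimum of reads none of the 10 passed limma for leukemia, and the lowest adjusted p was 0.341. None of the 10 had a 2-fold difference in WT/FE against WT. There the interval of Gata1 (0.551, 0.385 to 0.778) lay below 1 and that of Mafg (1.22, 1.12 to 1.33) above it. Of all genes, 34.5% had an interval apart from 1. In the leukemia cells Gata1 had 17 and 9 reads and Tal1 15 and 19, whereas Gata2 was at 14.4 and 13.3 FPKM and Nfe2 at 59.8 and 56.4 FPKM, both above all macrophage libraries. Gata1, Tal1, Gfi1b, Nfe2 and Zfpm1 are also factors of erythroid cells.

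Platelet receptors and adhesion molecules had no 2-fold difference on log2(FPKM + 1) between leukemic and other macrophages. Of 13 listed, 12 had 10 reads and 0 had a 2-fold difference in MA9 against WT, where the median log2(FPKM + 1) difference was 0.04 and 0 also passed in MA9/FE against WT/FE (median 0.06). By the reads test, which does not shrink low levels, 3 of 12 were higher in MA9 against WT and 1 of 12 in MA9/FE against WT/FE. The backgrounds were 9.6% and 9.66% of genes in either direction, so the second share was near that of all genes. The adhesion molecule Esam, shared with endothelium, had a ratio of 0.517 (0.454 to 0.588) in MA9 against WT, the contact receptor Pear1 0.787 (0.697 to 0.887) and the tetraspanin Cd9 0.905 (0.834 to 0.982). The following were named after their values were seen. Gp5, a further chain of the GPIb complex, had 30 reads for WT, 23 for WT/FE, 62 for MA9 and 29 for MA9/FE macrophages, with a ratio of 2.39 (1.52 to 3.84) in MA9 against WT and 1.34 (0.747 to 2.42) in MA9/FE against WT/FE. P2ry1 had 33 reads for WT, 25 for WT/FE, 95 for MA9 and 65 for MA9/FE macrophages, and F2rl2 had 44, 34, 109 and 32 in the same order. The collagen receptor Gp6, known from platelets and their precursors, had 0 to 4 reads in each macrophage library. Clec1b, found on platelets and some myeloid cells, was the 1 receptor of 12 with a 2-fold difference in MA9/FE against MA9 (background 2.46%), higher with 338 against 136 reads. It also had 237 reads in WT/FE against 119 in WT macrophages. By the reads test 2 of 12 were higher and 1 lower in MA9/FE against MA9 (background 6.49%), and 1 was higher in WT/FE against WT (background 2.06%). By limma 1 of 12, the ADP receptor P2ry1, passed for leukemia (Benjamini-Hochberg adjusted p = 0.0356, background 4.94% of genes). It did not pass without a minimum of reads (lowest limma adjusted p of the list 0.497) or with scaling by the median of ratios (0.0568).

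Of 19 genes of granules, cytoskeleton and signaling, 17 had 10 reads and 3 had a 2-fold difference in MA9 against WT, all higher (median 0.49), and 0 of 18 did in MA9/FE against WT/FE (median 0.18). By the reads test 9 of 17 were higher in MA9 against WT and 7 of 18 in MA9/FE against WT/FE, and none was lower in either. The backgrounds in either direction were 9.6% and 9.66% of genes by this test, and 4.7% and 4.57% for 2-fold differences. Thbs1, a granule protein also made by myeloid cells, rose from 24 to 183 reads in MA9 against WT (8.83, 5.76 to 14.1) and had 25 against 20 reads in MA9/FE against WT/FE. Slc35d3, which supplies dense granules, and the growth factor Angpt1 were the other 2, with ratios of 4.09 (2.83 to 6.02) and 3.15 (2.52 to 3.96), and they were named after their values were seen. F13a1, a clotting factor subunit shared with macrophages, had a ratio of 10 (5.87 to 18.5) and the clotting factor F5 one of 8.3 (5.05 to 14.5) in MA9 against WT, on low levels of 0.114 and 0.124 FPKM in WT. F13a1 reached 93.2 and 133 FPKM in the leukemia cells. Tubb1, the beta tubulin of the platelet rim, also named after its values were seen, had 20 reads for WT, 18 for WT/FE, 14 for MA9 and 13 for MA9/FE macrophages, an order unlike that of Pf4. By FPKM, 9 of the 19 genes were, like Pf4, highest in MA9 and second in MA9/FE macrophages. Among them Mmrn1, named after its values were seen, had 5 reads for WT, 5 for WT/FE, 57 for MA9 and 19 for MA9/FE macrophages.

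The other named genes of this list, which many cells express, had ratios between 0.939 and 1.41 in MA9 against WT macrophages. The ratio was 1.15 (1.08 to 1.21) for the granule gene Nbeal2, 1.08 (1.05 to 1.12) for the kinase substrate Plek, 0.939 (0.816 to 1.08) for Rgs18, a regulator of G proteins, 1.41 (1.22 to 1.63) for the cyclooxygenase Ptgs1 and 1.09 (1.02 to 1.17) for the membrane protein Stom. By limma 4 of 18 genes passed for leukemia against a background of 4.94%, all higher. These were Slc35d3, Cavin2, F13a1 and Angpt1 (limma, Benjamini-Hochberg adjusted p from 0.00679 to 0.0228). Without a minimum of reads none of the 4 passed limma (lowest adjusted p of the list 0.386). None passed for iron.

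**Figure D3:**
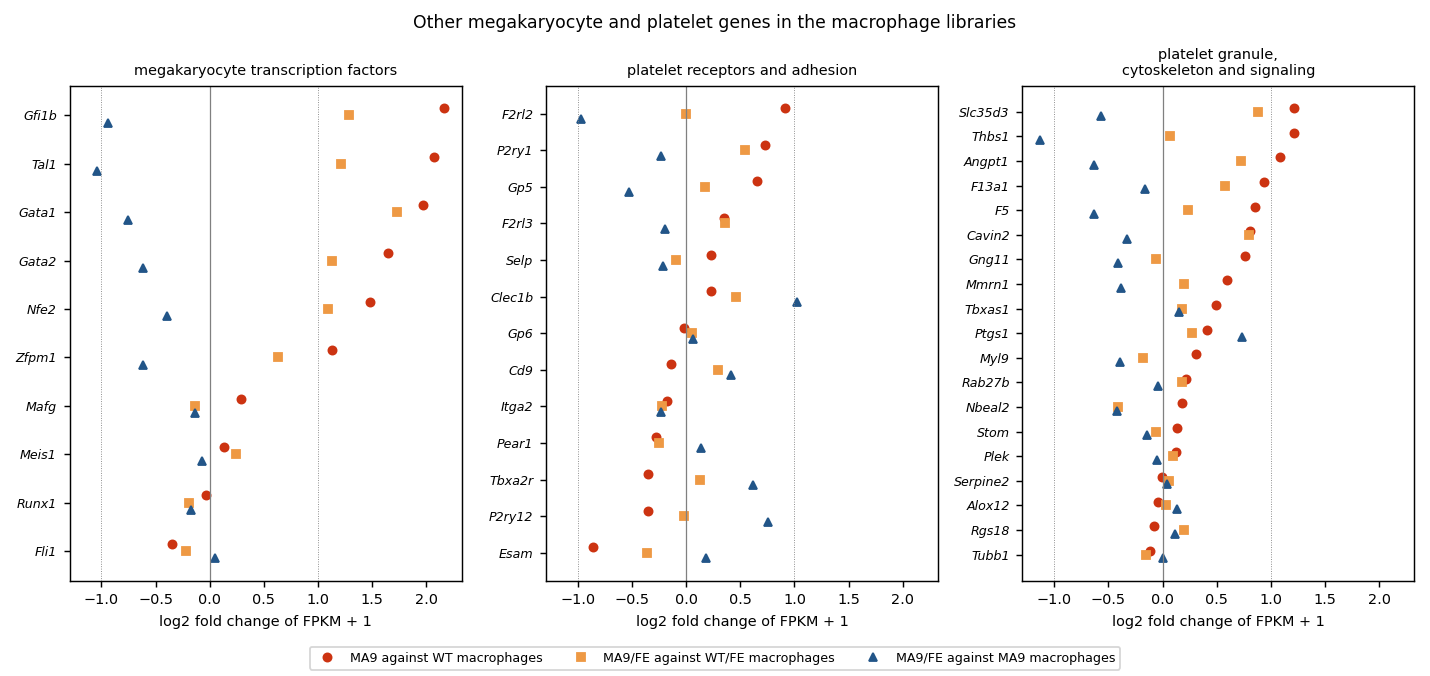
Difference in log2(FPKM + 1) for the genes of 3 lists (panels) in 3 comparisons of macrophage libraries, red circles for MA9 against WT, orange squares for MA9/FE against WT/FE and blue triangles for MA9/FE against MA9. Dotted lines mark a 2-fold difference. The red circles of 6 of 10 transcription factor genes lie beyond it, and those of the receptors lie within it.

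Markers of other cells moved between the same libraries. The summed FPKM of 7 neutrophil genes was 5.73 for WT and 4.15 for WT/FE macrophages, against 1835 for MA9 and 929 for MA9/FE macrophages, with all 7 of 7 genes 2-fold higher in both comparisons of leukemic with other mice. Of all genes, 3.79% were 2-fold higher in MA9 against WT and 2.93% in MA9/FE against WT/FE. None of the 7 was at 0 in the leukemic libraries, and Ltf in WT and Camp in WT/FE were listed at 0. The same sum was 5200 and 4093 in the leukemia cells, where Pf4 had 1 and 5 reads. Erythroid genes had a summed FPKM of 99.7 for WT, 212 for WT/FE, 297 for MA9 and 517 for MA9/FE macrophages, with 9 of 10 genes 2-fold higher in MA9 against WT and 8 of 10 in MA9/FE against WT/FE. Basophil and mast cell genes had sums of 31, 22.6, 169 and 87.5 in the same order, with 5 of 6 and 3 of 6 genes 2-fold higher. None of the erythroid or basophil genes was at 0 in any library. The neutrophil and basophil sums, like Pf4, Itga2b and Treml1, were highest in MA9, second in MA9/FE and lower in the 2 libraries without leukemia. This order held for 7 of 7 neutrophil genes, 5 of 6 basophil and mast cell genes and 4 of 10 erythroid genes (Klf1, Epor, Ermap and Slc4a1). Of the megakaryocyte and platelet lists, it held for 7 of 10 transcription factors, 3 of 13 receptors and 9 of 19 genes of granules, cytoskeleton and signaling. It also held for 4 of 8 endothelial and 2 of 7 stem and progenitor genes, and for 0 of 12 macrophage and 0 of 5 B cell genes. The erythroid sum, most of it from the globins Hba-a1 and Hbb-bs, was highest in MA9/FE.

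Endothelial genes, which matter for Vwf, had a summed FPKM of 5.92, 7.11, 8.7 and 8.02 in the 4 macrophage libraries, with 0 of 7 genes 2-fold different in either comparison of leukemic with other mice. By the reads test 3 of 7 were higher in MA9 against WT and 2 of 7 in MA9/FE against WT/FE (backgrounds 9.6% and 9.66% in either direction). The genes behind the sum differed in order. Stab2, a scavenger receptor of sinusoids, had 2.4, 4.76, 2.47 and 4.5 FPKM, whereas Kdr had 0.84, 0.574, 1.36 and 0.434 FPKM and Cdh5 0.853, 0.751, 0.98 and 0.459 FPKM. In MA9/FE against MA9 macrophages, Vwf was lower, but hardly so once the trend on exon length was removed. In that comparison Kdr (ratio 0.327, 0.242 to 0.435) and Cdh5 (0.48, 0.304 to 0.742) were lower by the reads test, without removal of that trend. They were 2 of 7 genes, with 0 higher (background 6.49% in either direction). The intervals of Tek (0.414, 0.201 to 0.806) and Tie1 (0.643, 0.419 to 0.976) also lay below 1, while Stab2 was higher, with 634 against 368 reads. Emcn was listed at 0 in WT and WT/FE. In the leukemia cells, where Vwf was lowest, the endothelial sum was 1.63 and 2.27. The B cell sum was 1817, 1668, 1006 and 1835 in the macrophages, lowest in MA9, and 0 of 5 genes passed in either comparison. The macrophage sum was 401, 696, 382 and 908, with 0 of 12 genes passing in either, and that of 7 stem and progenitor genes was 194, 175, 146 and 163, with 1 of 7 and 0 of 6 passing. For the 9 members themselves the sum was 13.9, 14.1, 27.4 and 20.7 in the macrophages and 11.9 and 11.8 in the leukemia cells. The part of these other cells in the differences of Pf4, Itga2b, Treml1 and Vwf was not tested.

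**Figure D4:**
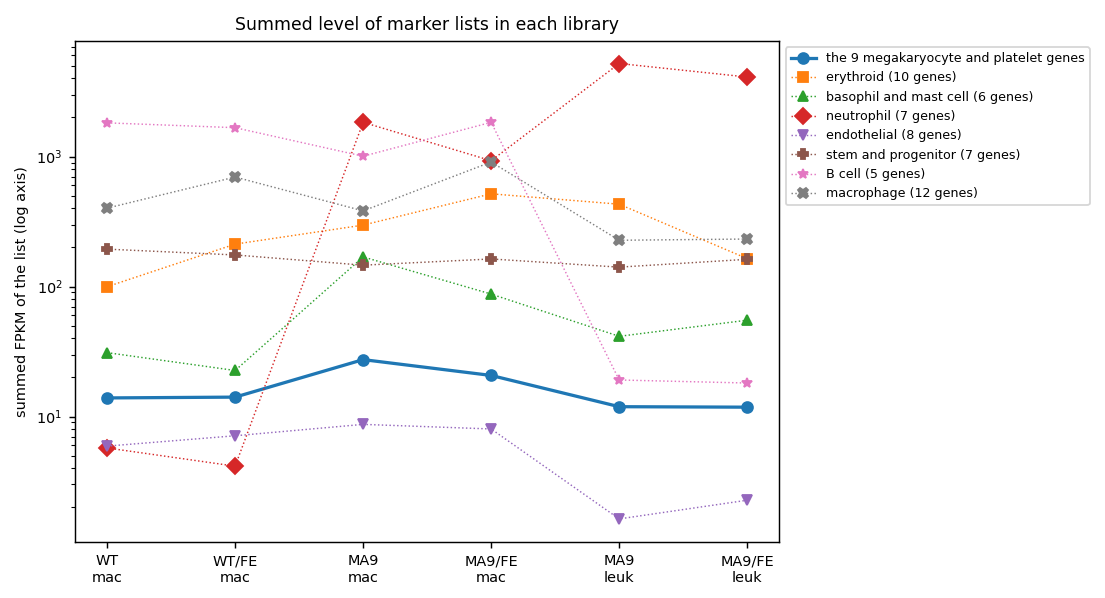
Summed FPKM (log axis) of the members and of marker lists in each library, 1 line per list, joined only to guide the eye. The neutrophil line goes from 5.73 in WT to 1835 in MA9 macrophages, while the line of the 9 members goes from 13.9 to 27.4.

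The genes whose pattern was most like the mean pattern of the 9 members were sought among 12059 other genes, by the root mean square difference of centred log2(FPKM + 1) over the 6 libraries. The nearest were Tox (0.0386), Psip1 (0.049), Txndc11 (0.0632), Abcg2 (0.0674) and Efnb1 (0.0804). The mean pattern itself, in log2(FPKM + 1) about its own mean, was 0.46 for MA9, 0.29 for MA9/FE and -0.03 for both other macrophage libraries, and -0.36 and -0.33 for the leukemia cells. Tox had 46 reads for WT, 28 for WT/FE, 101 for MA9 and 62 for MA9/FE macrophages and none in the leukemia cells. Pf4, whose range was the widest, lay far from the mean of its own group (0.83), and Vwf (0.209) and Gp9 (0.222) lay nearest to it. Even these ranked only 426 and 576 when set among the other genes, so no single member followed the mean pattern closely. The mean took in Gp1bb, listed at 0 throughout, whose own distance was 0.298. That of Itga2b was 0.382, so a small distance can mean a narrow range and not a shared order.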

How the data were processed

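RNA of sorted mouse cells was sequenced in 6 libraries, 1 per condition, and conditions were taken from the labels. The authors deposited FPKM for 54532 genes. Per the labels, the processing involved Bowtie2 2.2.5, RSEM and mm10, whose roles are not stated, and the annotation is not given in the sources used here. Exon lengths came from GENCODE M21 on GRCm38 (54495 genes). FPKM times exon length gave whole multiples of 1 step (96.8% to 97% of values above 0 within 0.05 reads), from which reads and depth were recovered. The reads of all 9 members came out whole. An FPKM of 3 reads sets the floor of a gene at 0.

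Pairs of libraries were scaled by TMM (hand coded, trimming 0.3 of log ratios and 0.05 of levels). A gene with at least 10 reads in either library and a fold of at least 2 on log2(FPKM + 1) was counted as different, without a test. Ratios of reads have exact 95% binomial (Clopper-Pearson) intervals, an addition made after the data were seen. Additive models over 4 libraries used limma 3.58.1 (R 4.3.3) with a trend, for genes that reached 10 reads in 2 or more libraries, Benjamini-Hochberg adjusted p at or under 0.05 and 1 residual degree of freedom. The steps were tested on simulated data. The rest used scipy 1.17.1, numpy 2.4.6, statsmodels 0.14.6, pandas 2.3.3 and matplotlib 3.10.9 in Python 3.11.15.

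The members and all gene lists were chosen with earlier results of these data known. A listed gene is not reported here, and the counts of its list leave it out. Named were all members, the 20 genes with the most reads among list genes with at least 50 reads and a 2-fold difference in any of the 7 comparisons, and the 5 genes nearest in pattern with at least 100 reads. Promoters were matched by symbol. The alternatives were other scalings, a pseudocount of 0.1, no minimum or 50 reads, a counting noise test on reads and differences freed of their trend on exon length.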

Additional observations from a re-analysis of the deposited data

Results flagged for a closer look

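No member of the 9 had intervals on opposite sides of 1 in parallel comparisons, but some list genes did, by ratios of reads with exact 95% counting intervals, and in no case was the difference between the comparisons tested. For iron in macrophages, Mafg, a partner of Nfe2, had a ratio of 1.22 (1.12 to 1.33) in mice without leukemia and 0.9 (0.826 to 0.981) in MA9 mice. Nbeal2, a gene of alpha granule formation, had 1.11 (1.05 to 1.17) and 0.728 (0.682 to 0.777) in the same order, and 0.847 (0.817 to 0.879) in the leukemia cells. The cyclooxygenase gene Ptgs1 had 1.98 (1.73 to 2.26) and 1.77 (1.56 to 2) in macrophages but 0.629 (0.57 to 0.694) in the leukemia cells. Runx1 was at 0.875 (0.808 to 0.948) for iron in MA9 macrophages and 1.13 (1.08 to 1.18) in leukemia cells, and Stom at 0.907 (0.845 to 0.974) and 1.05 (1.02 to 1.09).

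For leukemia, Mafg had a ratio of 1.25 (1.15 to 1.36) without iron and 0.901 (0.826 to 0.982) with iron, and Nbeal2 had 1.15 (1.08 to 1.21) and 0.735 (0.689 to 0.785). Cd9 went the other way, with 0.905 (0.834 to 0.982) without iron and 1.23 (1.14 to 1.33) with iron. For leukemia cells against macrophages, Ptgs1 had 2.35 (2.09 to 2.64) without iron and 0.86 (0.771 to 0.959) with iron. Several of these comparisons share a library. None of the ratios in this section was freed of the trend on exon length. That trend moved the share of higher genes for leukemia with iron and for iron in MA9 macrophages, as given below. Its part in these opposite directions was not tested.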

How the results depend on the processing

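The members' log2 differences were recomputed with scaling by the median of ratios and with TMM without hemoglobin and immunoglobulin genes. They were also recomputed with a pseudocount of 0.1 and without the trend on exon length. No member's difference called 2-fold changed sign under these. Of the values, 217 moved by no more than the counting error of the log2 ratio of reads and 7 by more. Values of Treml1 against or at 0 reads had no such limit and were counted among the 217. The counts below follow 1 order, which is iron in WT macrophages, leukemia without iron, leukemia with iron, iron in MA9 macrophages, iron in leukemia cells, and leukemia cells against macrophages without and then with iron, and the main counts were 213, 795, 758, 406, 133, 3407 and 3832 genes. With a pseudocount of 0.1 FPKM, 784, 1980, 2083, 1499, 631, 5809 and 6498 genes passed, and the counting noise test passed 345, 1625, 1601, 1072, 260, 5525 and 6227. Without a minimum of reads, 481 genes passed in the first comparison, 731 in the fourth and 375 in the fifth, and with at least 50 reads these were 116, 234 and 60. Differences freed of their trend on exon length moved the share of higher genes from 64.1% to 45.7% for leukemia with iron and from 48.8% to 31.7% for iron in MA9 macrophages. The other scalings moved no share of a pair by over 10 points.

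Among members, a pseudocount of 0.1 FPKM gave 3 in place of 1 for MA9/FE against WT/FE (Pf4, Itga2b and Treml1) and 6 in place of 2 in both comparisons of leukemia cells with macrophages. The counting noise test gave 3 for MA9/FE against WT/FE and 5 in both of the latter. By counting intervals apart from 1 there were 4 for each comparison of leukemic with other macrophages, 3 for MA9/FE against MA9 macrophages and 7 in both of the latter. In the limma models, without a minimum of reads the counts of genes fell from 804 to 1 for leukemia, with 0 members, from 34 to 0 for iron and from 6613 to 3301 for leukemia cells against macrophages, where Pf4 was the 1 member called. For iron, 9 genes passed with size factors by the median of ratios (44.4% higher, against 64.7%) and 68 with a pseudocount of 0.1 FPKM. The cause of these differences was not tested, other than that more genes enter each fit without a minimum.

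No paired analysis was possible because each condition has 1 library. Leaving out a replicate was not an option for the same reason. Depth limited Ppbp, Gp9 and Treml1 most, with at most 30 reads per library.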
